A study of Mus musculus with 4 samples.

Results

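The genes described here are the translation initiation and elongation factors of mouse hematopoietic progenitors. They were chosen by symbol, as every row whose name began with Eif1 to Eif6, Eef1 or Eef2, and the sex-linked pair Eif2s3x and Eif2s3y was left out. The rule found 62 genes among the 12750 symbols that the 4 tables named, joint names included, and it used no measured value. 1 of them, Eif4ebp3, shared its row with the neighbouring gene Ankhd1 in 1 library and was left out of the fold changes, so that 61 genes remained.

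Translation of most mRNAs starts when eIF4F binds the cap, and a small ribosomal subunit carrying eIF1, eIF1A, eIF3, eIF5 and the initiator tRNA held by eIF2 then scans to the start codon. eIF2 leaves with GDP and must be recharged by its exchange factor eIF2B. 4 kinases that sense haem, double-stranded RNA, unfolded proteins or lack of amino acids phosphorylate the alpha subunit of eIF2 and thereby block eIF2B, which lowers initiation in general. Elongation is then carried by eEF1A, which brings the charged tRNA, by its exchange complex eEF1B and by eEF2, which moves the ribosome along. Hematopoietic stem cells are known for a low rate of protein synthesis compared with the progenitors that follow them.

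RNA of bone marrow cells from C57BL/6 mice was measured in 4 libraries, with 1 library for HSC (hematopoietic stem cells) and 1 for CLP (common lymphoid progenitors) of either genotype, WT and GRK6-/-. HSC were sorted as Lin-c-kit+sca-1+ cells, a gate that also holds multipotent progenitors, and CLP by the same markers together with Il-7Ra. GRK6-/- mice lack exons common to the splice variants of GRK6, a kinase of G protein-coupled receptors, in all their cells, and the study compared mice of 8 to 12 weeks. Each library pooled amplified cDNA of 13 to 15 cells from 3 to 4 mice after 20 and then 10 cycles of PCR, so there were no replicates, the spread between mice or cells could not be estimated, and no difference below was tested.

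The values are FPKM, fragments per kilobase of transcript, scaled to the mapped fragments of the library, and fold changes are log2 ratios of FPKM + 1, in which a ratio of 1 stands for 2-fold. The tables held 10056 to 11060 rows each. Steps in the lowest values put the depth at about 2790000 to 4340000 fragments, at which 1 fragment in a 2 kb transcript was worth 0.115 to 0.179 FPKM. The study states a larger number of reads for each lineage. The reason for the gap was not tested, and the fragment numbers below rest on the estimate. A gene with no row was set to 0, and the tables give no reason for a missing row. Il7r, which encodes the sorted receptor, had no row in WT HSC and stood at 1.08 FPKM in GRK6-/- HSC, against 120.1 and 75.1 FPKM in WT and GRK6-/- CLP. The 7 CLP markers, Il7r included, summed to 168.4 and 117.5 FPKM in WT and GRK6-/- HSC. In WT and GRK6-/- CLP they summed to 2756 and 1992 FPKM. Rag2 had 94.5 FPKM in WT CLP, no row in GRK6-/- CLP and 0.31 FPKM in GRK6-/- HSC. Rag1 was at 23.03 and 2.47 FPKM in WT and GRK6-/- CLP. Dntt and Ly6d were also lower in GRK6-/- than in WT CLP, by less than 2-fold, and Flt3 and Ebf1 were higher. Grk6 itself was at 42.7 and 89.4 FPKM in WT and GRK6-/- HSC, and at 26.9 and 57.6 FPKM in WT and GRK6-/- CLP. It was thus higher in both libraries labelled GRK6-/-, and with a single value per gene the deleted exons cannot be looked at separately. Of 10 erythroid markers, 7 were in the tables, and their summed level was 338 and 1701 FPKM in WT and GRK6-/- HSC, and 154 and 18111 FPKM in WT and GRK6-/- CLP. Hba-a2 alone made up 17219.5 FPKM of the last sum, and the other 6 summed to 332 and 1648 FPKM in WT and GRK6-/- HSC and to 137 and 891 FPKM in WT and GRK6-/- CLP. All 7 had a row in both GRK6-/- libraries, and Alas2, of haem synthesis, had none in WT CLP. Of the 6 B lineage markers, 5 were in the tables and summed to 41.9, 35.5, 90.3 and 886 FPKM in the same order, and those other than Cd79b had no row in WT HSC. The 10 myeloid markers summed to 17848 and 11341 FPKM in WT and GRK6-/- HSC and to 9385 and 7855 FPKM in WT and GRK6-/- CLP. Elane, Mpo, Ctsg and Prtn3 made up most of each sum, and other markers of the list went different ways. In CLP, Ngp and Camp had a row only in GRK6-/- (44.7 and 68.0 FPKM) and S100a9 only in WT (269 FPKM). The 3 megakaryocyte markers summed to 149 and 10.9 FPKM in WT and GRK6-/- HSC and to 13.5 and 115 FPKM in WT and GRK6-/- CLP. All 8 of the tabled HSC and early progenitor markers had a row in each library, except Procr in WT HSC. The part of these other cell types in the differences below was not tested. In bulk libraries like these, fewer cells of a type and less RNA per cell cannot be told apart.

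Most translation factors were present in every library. Of the 62 genes, 61 had a row of their own in WT HSC and 57 in WT CLP, with 59 in each of the GRK6-/- libraries. The 61 genes of the fold changes together took 1.72% and 2.16% of the summed FPKM in WT and GRK6-/- HSC, and 1.97% and 1.83% in WT and GRK6-/- CLP. Cytosolic ribosomal proteins, the other large group of the translation machinery, took 19.1%, 21.3%, 23.7% and 15.4% in that order. Members stayed within 2-fold of each other over all 4 libraries in 24 of 61 cases (39.3%), while 12.05% of all genes did. High genes are steadier in general, and at a mean of at least 100 FPKM the shares were 15 of 22 members (68.2%) and 48.2% of all genes. The 7 genes of that class that were not so steady were Eef1b2, Eif1ax, Eif3b, Eif3l, Eif3m, Eif4a1 and Eif4ebp1.

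**Figure D1:**
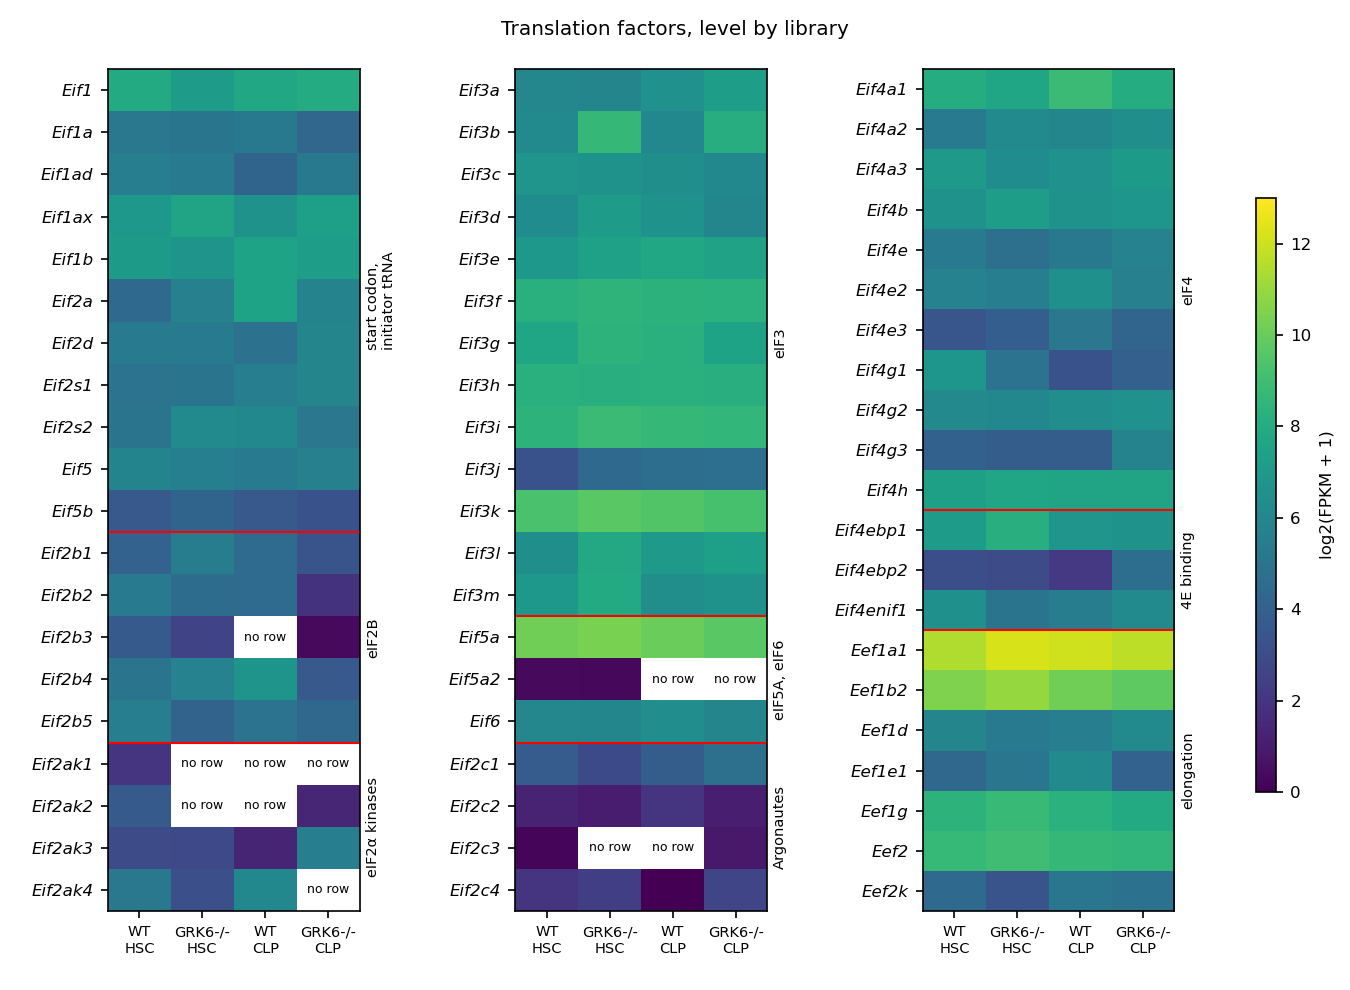
Levels of the 61 translation factors as log2(FPKM + 1), with 1 column per library and the genes grouped by role. The elongation factors Eef1a1 and Eef1b2 and the initiation factor Eif5a were the brightest in all 4 libraries, and white cells mark genes without a row, 6 of them among the eIF2α kinases.

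Levels also differed by transcript length. The 21 members with a longest coding transcript under 2000 bp had median levels of 139 to 228 FPKM over the 4 libraries, the 23 members of 2000 to 4000 bp had 45.8 to 56.02 FPKM, and the 17 members of at least 4000 bp had 7.93 to 14.9 FPKM. cDNA was primed at the poly(A) tail, and whether this priming lowered the FPKM of long transcripts was not tested. Comparisons between genes below are of FPKM, which is scaled to length.

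The elongation factors held the highest levels. Eef1a1, which encodes the tRNA carrier eEF1A1, was at 2756 and 4789 FPKM in WT and GRK6-/- HSC, and at 4231 and 3367 FPKM in WT and GRK6-/- CLP. It was first of all members in each library, with log2 ratios of GRK6-/- over WT of 0.80 in HSC and -0.33 in CLP. Processed copies of Eef1a1 exist in the genome, and 1 of them, Gm6548, had its own row of 115 to 155 FPKM, so the split of shared reads between them is uncertain.

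Eef1b2, which encodes the nucleotide exchange subunit of eEF1B, was at 1446 and 1940.4 FPKM in WT and GRK6-/- HSC and at 1168 and 881 FPKM in WT and GRK6-/- CLP. Its log2 ratios were 0.42 in HSC and -0.41 in CLP. Eef2, the translocase, varied least of the elongation factors, at 421, 512, 399 and 379.6 FPKM first in WT and GRK6-/- HSC and then in WT and GRK6-/- CLP, an order kept wherever 4 values follow each other below. Its log2 ratios were 0.28 in HSC and -0.07 in CLP. Eef1g, the scaffold of eEF1B, had 341, 439.7, 316 and 246 FPKM and log2 ratios of 0.36 and -0.36.

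These 4 genes were all higher in GRK6-/- than in WT HSC and all lower in GRK6-/- than in WT CLP, and in each case by less than 2-fold. Eef1d, a second exchange subunit of eEF1B, went the other way in both populations, at 58.5, 38.1, 45.8 and 72.7 FPKM. The level of Eef1b2 was 12.1 to 51.0 times that of Eef1d, and that of Eef1a1 was 6.55 to 10.6 times that of Eef2.

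The remaining genes with Eef symbols regulate or accompany elongation and had 9.37 to 74.1 FPKM. Eef2k encodes the kinase that inhibits eEF2, and had 20.7, 9.37, 33.4 and 29.1 FPKM, with a log2 ratio of -1.07 in HSC and -0.19 in CLP. Eef1e1 encodes a small protein of the complex of aminoacyl-tRNA synthetases, and had 19.1, 32.9, 74.1 and 16.2 FPKM. Its log2 ratio was 0.76 in HSC and -2.12 in CLP, where WT CLP was the highest of the 4 libraries and GRK6-/- CLP the lowest.

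Many mRNAs of the translation machinery begin with a C followed by a run of pyrimidines, the TOP tract through which mTOR signaling acts on their translation. The 30 bases from 5 before to 25 after the annotated start were therefore read for members with an entry in the RefSeq promoter table (GRCm38.p6, whose coordinates differ from the mm9 loci of the deposited values). The sequences of 5 genes of high level are shown with each C followed by at least 4 C or T in capitals, on the strand of the gene and with overlapping matches merged, together with Eif3b, which was higher in GRK6-/- in both populations, and Eef1b2 and Eif4a1, in which no such run was found.
Eef1a1: CCCTCTTCCCgagggtgggggagaacggta
Eef2: cgggcgttgacgtcagcggtCTCTTCCgcc
Eif3f: gCTCTCTCTCTTTCTCggcaagatggcttc
Eif3k: gcgctggtgctgaaagcgCCTTTCCCTTTg
Eif3l: CTTCTTCCgCTCTCTCCCacgggCTTCTgg
Eif3b: gcggtgaCTTCTgggagtcggaagcagggc
Eef1b2: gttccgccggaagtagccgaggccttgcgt
Eif4a1: gtcacgtcgagttgcagagcgccggcaggc

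The windows lie at chr9:78481700-78481729 on the minus strand for Eef1a1, chr10:81176626-81176655 on the plus strand for Eef2, chr7:108934410-108934439 on the plus strand for Eif3f and chr7:28981864-28981893 on the minus strand for Eif3k. Those of the other genes are at chr15:79075218-79075247 (Eif3l, plus), chr5:140419300-140419329 (Eif3b, plus), chr1:63176826-63176855 (Eef1b2, plus) and chr11:69672399-69672428 (Eif4a1, minus). In Eef1a1 the run opened the window, whereas in Eef2 and Eif3k it lay near its end. A run of this kind was present in 19 of 49 members with an entry (38.8%) and in 10397 of 27025 genes with an entry (38.5%), so its share in the factors was that of genes in general. It was present in 8 of 17 members with a mean of at least 100 FPKM, in 11 of 32 members below it, and in 37 of 55 ribosomal protein genes. Only the given strand was searched, and a run in this window is a description of the letters and not a measured start site.

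eIF3, the largest initiation complex, holds the small ribosomal subunit ready for the mRNA. All 13 of its subunits had a row in each library. The order of their levels was partly fixed, with Eif3k highest, Eif3i second and Eif3j lowest in all 4 libraries. Eif3k, a peripheral subunit, was at 622, 822, 713 and 598 FPKM. Eif3i, a subunit of the module that also holds Eif3b and Eif3g, was at 342, 468, 405 and 390.4 FPKM. Eif3j, a loosely bound subunit, was at 8.62, 20.7, 24.9 and 26.2 FPKM. Its log2 ratio was 1.17 in HSC and 0.07 in CLP, and since the mouse genome holds a near-identical copy of it and its locus overlaps that of Spg11 in all 4 tables, its level is uncertain.

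Eif3b was the only factor more than 2-fold higher in GRK6-/- than in WT in both populations. It encodes the scaffold subunit that binds eIF3 to the small ribosomal subunit, and lies at chr5:140895259-140919312 of mm9 on the files' annotation. Its level was 73.1 and 403 FPKM in WT and GRK6-/- HSC, and 65.5 and 273 FPKM in WT and GRK6-/- CLP. Both GRK6-/- libraries were above both WT libraries, with log2 ratios of 2.45 in HSC and 2.04 in CLP. Among the 13 subunits Eif3b was 11th and 12th in WT HSC and WT CLP and 3rd and 5th in GRK6-/- HSC and GRK6-/- CLP.

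Of the other subunits, Eif3i, Eif3g and Eif3a stayed within 2-fold of WT in both populations. Eif3i had log2 ratios of 0.45 in HSC and -0.05 in CLP, and Eif3g, an RNA-binding subunit, had 207, 339.6, 306 and 186 FPKM. Eif3a, the large subunit that Eif3b binds, had 64.7, 58.5, 93.4 and 153.9 FPKM. Eif3a was thus lowest of the 12 subunits other than Eif3j in both HSC libraries.

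In HSC 3 other subunits passed 2-fold, all higher in GRK6-/-. With Eif3b this made 4 of 13 higher (30.8%, against 19.3% of all genes), and in CLP it was 1 of 13 (7.69% against 26.6%). Eif3l had 88.2, 228, 126 and 160.1 FPKM, with a log2 ratio of 1.36 in HSC and 0.34 in CLP. Eif3m, a subunit of the core of eIF3, had 123, 247, 84.2 and 102 FPKM, with log2 ratios of 1.002 and 0.28, the first of them just past the threshold. Eif3j was the third. No subunit was more than 2-fold lower in either population, against 18.0% of all genes in HSC and 23.4% in CLP.

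The rest of the complex stayed within 2-fold of WT in both populations. Eif3f and Eif3h, the subunits with MPN domains, varied little, with 301, 349.9, 324 and 316 FPKM for Eif3f and 309, 286, 299 and 298 FPKM for Eif3h. Their log2 ratios were 0.22 and -0.11 in HSC and -0.04 and -0.01 in CLP. Eif3c had 108, 100.1, 88.3 and 65.9 FPKM, Eif3d, which can bind the cap itself, had 79.2, 146, 101 and 61.2 FPKM, and Eif3e had 120.1, 176, 211 and 181 FPKM. The median of the 12 subunits other than Eif3j was 121 and 267 FPKM in WT and GRK6-/- HSC, and 169 and 183 FPKM in WT and GRK6-/- CLP. The highest of the 12 exceeded the lowest by 9.61 to 14.04 times.

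**Figure D2:**
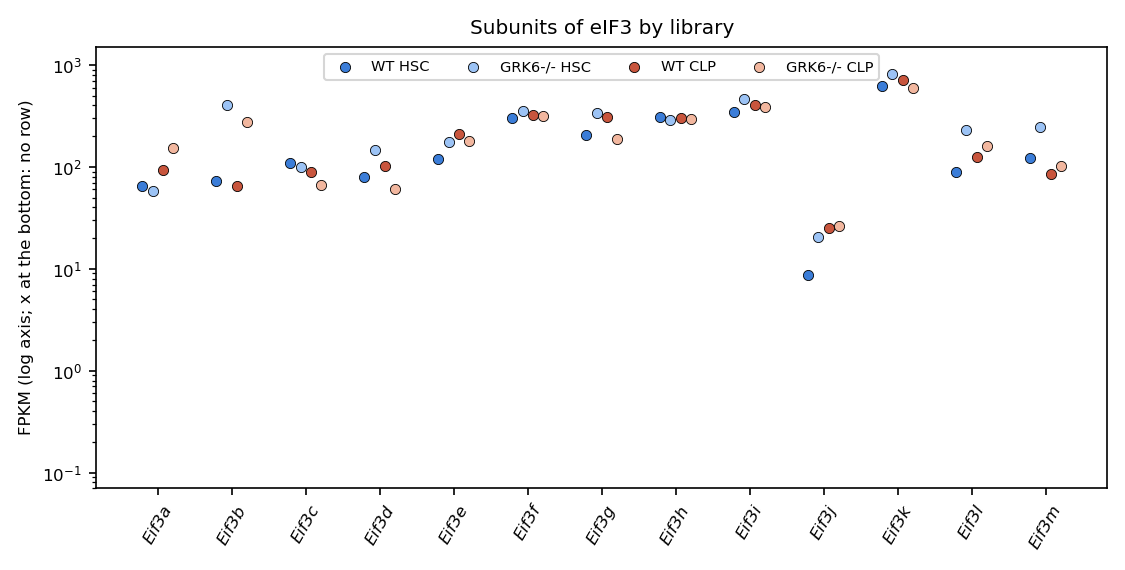
FPKM of the 13 eIF3 subunits on a log axis, with 1 point per library and gene. The points of Eif3f and Eif3h lie almost on each other, while those of Eif3b fall into a lower pair of WT libraries (65.5 and 73.1 FPKM) and an upper pair of GRK6-/- libraries (273 and 403 FPKM).

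eIF5A, which helps the ribosome through difficult stretches and carries the amino acid hypusine, was represented almost wholly by 1 of its 2 genes. Eif5a had 1143, 1337, 1029 and 809.9 FPKM, with log2 ratios of 0.23 in HSC and -0.35 in CLP. Eif5a2 had 0.27 FPKM in WT HSC and 0.21 in GRK6-/- HSC, about 4 fragments in each, and no row in either CLP library. Eif6, which keeps the ribosomal subunits apart, had 62.7, 61.3, 82.2 and 60.004 FPKM and was within 2-fold throughout.

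The eIF4 group binds the cap and unwinds the mRNA. Eif4a1, the main helicase of eIF4F, had 263, 196, 465 and 262 FPKM, with log2 ratios of -0.42 in HSC and -0.83 in CLP. Eif4a2, its close paralog, had 38.2, 74.1, 61.9 and 89.0 FPKM, with log2 ratios of 0.94 and 0.52, so that the level of Eif4a1 was 6.90 and 7.52 times that of Eif4a2 in WT HSC and WT CLP and 2.65 and 2.94 times in the GRK6-/- libraries. Reads shared by these paralogs could be split either way, and the locus of Eif4a2 overlaps that of Rfc4. Eif4a3, the helicase of the exon junction complex, had 127, 79.2, 92.9 and 136 FPKM.

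Eif4e, the cap-binding protein, had 42.1, 26.7, 36.8 and 53.0 FPKM, with log2 ratios of -0.64 in HSC and 0.52 in CLP. Its relatives Eif4e2 and Eif4e3 had 54.2, 46.5, 90.1 and 50.1 FPKM and 10.1, 13.98, 34.9 and 17.8 FPKM, with a log2 ratio of -0.94 for Eif4e3 in CLP. Eif4b and Eif4h, which assist the helicase, had 102, 150.2, 99.4 and 111 FPKM and 169, 197, 191 and 192 FPKM.

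The scaffolds of eIF4F differed more. Eif4g1, the main scaffold joining the cap-binding protein to the helicase, lies at chr16:20672822-20692956 of mm9. It had 112 and 30.1 FPKM in WT and GRK6-/- HSC, and 8.58 and 14.9 FPKM in WT and GRK6-/- CLP, with log2 ratios of -1.87 in HSC and 0.74 in CLP. WT HSC stood apart from the other 3 libraries, and CLP was lower than HSC by 3.56 on the log2 scale in WT. Eif4g3, its paralog, had 15.2, 13.1 and 13.4 FPKM in the first 3 libraries and 55.2 in GRK6-/- CLP, with a log2 ratio of 1.97 in CLP and -0.20 in HSC. Eif4g2, a relative that lacks the site for the cap-binding protein, had 69.5, 66.1, 81.6 and 94.1 FPKM. The scaffold of highest level was therefore Eif4g1 in WT HSC and Eif4g2 in the other 3 libraries.

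Of the proteins that bind eIF4E and keep it from the scaffold, Eif4ebp1 was the highest, with 139, 295, 110.3 and 98.4 FPKM. Its log2 ratio was 1.08 in HSC and -0.16 in CLP. Eif4ebp2 had 7.77, 6.93, 3.43 and 25.2 FPKM, with log2 ratios of -0.15 in HSC and 2.56 in CLP. These were about 27 fragments in WT CLP and 126 in GRK6-/- CLP, and with a pseudocount of 10 the ratio was 1.39. Eif4ebp1 exceeded Eif4e 3.29 times and 11.1 times in WT and GRK6-/- HSC, and 3.00 times and 1.86 times in WT and GRK6-/- CLP. Eif4enif1, which carries eIF4E into the nucleus and to processing bodies, had 90.1, 31.4, 43.2 and 74.3 FPKM, with log2 ratios of -1.49 in HSC and 0.77 in CLP. The summed megakaryocyte markers given above were lower in GRK6-/- than in WT HSC and higher in GRK6-/- than in WT CLP, the signs of Eif4enif1 and Eif4g1, and their part in these values was not tested. Eif4ebp3 was at 13.2 FPKM in WT CLP and at 28.6 and 27.9 FPKM in GRK6-/- HSC and GRK6-/- CLP, and in WT HSC its row, shared with Ankhd1, was at 37.3 FPKM.

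Start codon selection and delivery of the initiator tRNA rest on 11 of the members. Eif1, which guards start codon choice, had 245, 146, 219.8 and 256 FPKM, and its paralog Eif1b had 137, 104, 187 and 157 FPKM. Eif1ax and Eif1a, both encoding eIF1A, had 121, 195, 97.2 and 159 FPKM and 35.5, 31.8, 37.8 and 18.9 FPKM, and Eif1a had a log2 ratio of -0.96 in CLP. Eif1ad, named for a domain like that of eIF1A, had 45.8, 38.2, 17.0 and 36.7 FPKM, with a log2 ratio of 1.07 in CLP and -0.26 in HSC. Eif5, which activates the GTPase of eIF2, had 56.7, 48.3, 41.6 and 49.1 FPKM, and Eif5b, which joins the ribosomal subunits, had 11.2, 17.2, 11.3 and 8.73 FPKM.

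Among the members are 2 subunits of eIF2, and their levels did not run in parallel. Eif2s1, the alpha subunit that the stress kinases phosphorylate, had 30.1, 31.4, 45.8 and 60.4 FPKM. Eif2s2, the beta subunit, had 31.0, 70.2, 66.8 and 34.7 FPKM, with log2 ratios of 1.16 in HSC and -0.92 in CLP. The level of Eif2s1 was 0.97, 0.45, 0.69 and 1.74 times that of Eif2s2 over the 4 libraries.

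Eif2a and Eif2d encode factors outside eIF2 that can bring a tRNA to the ribosome. Eif2a had 20.5 and 50.3 FPKM in WT and GRK6-/- HSC, and 182 and 56.02 FPKM in WT and GRK6-/- CLP. WT HSC was the lowest and WT CLP the highest, with both GRK6-/- libraries between them, and the log2 ratios were 1.25 in HSC and -1.68 in CLP. In WT, CLP was above HSC by a log2 ratio of 3.09, while in GRK6-/- this ratio was 0.15. The locus of Eif2a overlaps that of Serp1 in all 4 tables, at 61.4 to 112 FPKM for Serp1. Eif2d had 38.4, 40.1, 29.2 and 59.7 FPKM and a log2 ratio of 1.01 in CLP, just past 2-fold.

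The 5 subunits of eIF2B had their lowest summed level in GRK6-/- CLP. The sum was 146 and 143 FPKM in WT and GRK6-/- HSC, and 181 and 42.8 FPKM in WT and GRK6-/- CLP. In CLP 3 subunits were more than 2-fold lower in GRK6-/- (60%, against 23.4% of all genes). In HSC 1 was higher (20% against 19.3%) and 2 were lower (40% against 18.0%). Eif2b4, a regulatory subunit at chr5:31489931-31495512 of mm9, had 31.1, 52.8, 107 and 11.4 FPKM, with log2 ratios of 0.75 in HSC and -3.12 in CLP. Eif2b2, another regulatory subunit, had 39.6, 23.3, 22.3 and 2.69 FPKM, with log2 ratios of -0.74 and -2.66. Eif2b1, the third of them, had 16.3, 44.9, 21.99 and 9.48 FPKM, with log2 ratios of 1.41 and -1.13. With a pseudocount of 10, which draws low levels together, Eif2b2 was at -1.35 in CLP and Eif2b1 at -0.72, no longer past 2-fold.

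The catalytic subunits of eIF2B did not pass 2-fold in CLP, although Eif2b5 was lower there as well. Eif2b5, which holds the exchange activity, had 47.0, 16.5, 30.3 and 19.0 FPKM, with log2 ratios of -1.45 in HSC and -0.65 in CLP. Eif2b3, its partner, had 11.7 and 5.24 FPKM in WT and GRK6-/- HSC, a log2 ratio of -1.03. It had no row in WT CLP and 0.25 FPKM, about 3 fragments, in GRK6-/- CLP, too little to read a direction in CLP.

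**Figure D3:**
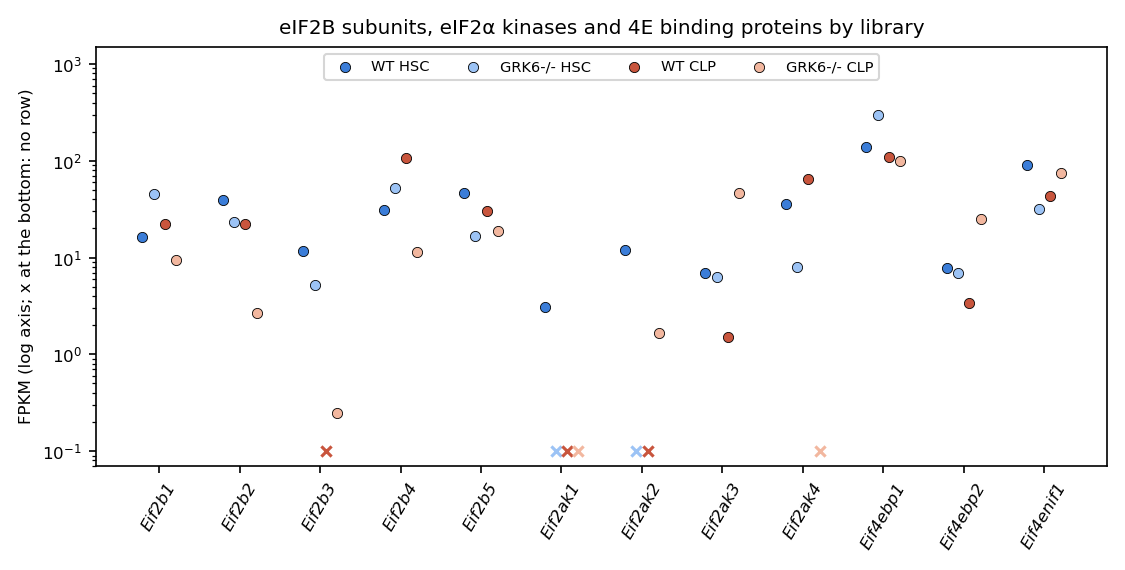
FPKM of the 5 eIF2B subunits, the 4 eIF2α kinases, Eif4ebp1, Eif4ebp2 and Eif4enif1 on a log axis, with 1 point per library and a cross at the bottom where a library had no row. For Eif2b1, Eif2b2 and Eif2b4 the GRK6-/- CLP point is the lowest of the 4 (9.48, 2.69 and 11.4 FPKM), and for Eif2ak3 it is the highest (46.8 FPKM).

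Of the 4 kinases of eIF2 alpha, none had a similar level in all 4 libraries. Eif2ak4 (GCN2, the sensor of amino acid shortage) was the only factor more than 2-fold lower in GRK6-/- in both populations. It lies at chr2:118214353-118300972 of mm9 and had 36.1 and 7.93 FPKM in WT and GRK6-/- HSC, a log2 ratio of -2.05, and 65.0 FPKM in WT CLP with no row in GRK6-/- CLP. No other row covered its locus in that library.

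Eif2ak3 (PERK, the sensor of unfolded protein in the endoplasmic reticulum) had 6.85, 6.34, 1.499 and 46.8 FPKM. The GRK6-/- CLP library was above the other 3, with a log2 ratio of 4.26 in CLP and -0.10 in HSC. The values came to about 29 fragments in WT CLP and 589 in GRK6-/- CLP, and a pseudocount of 10 put the ratio at 2.30.

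Eif2ak1 (HRI, the haem-regulated kinase) had a row only in WT HSC, at 3.05 FPKM or about 38 fragments. A row of its neighbour Aimp2 overlapped the locus in all 4 tables, at 64.2, 55.98, 41.0 and 36.04 FPKM. GRK6-/- CLP, where the erythroid markers summed highest, had no row for it. Eif2ak2 (PKR, which binds double-stranded RNA) had rows in WT HSC, at 11.9 FPKM, and in GRK6-/- CLP, at 1.64 FPKM. Its gaps go with row naming. In GRK6-/- HSC and WT CLP the row named Gm6548, at 155 and 147 FPKM, ran over chr17:79249845-79281912 and so covered the whole Eif2ak2 gene, while in the other 2 libraries it ended at 79251884, before Eif2ak2 starts. The direction of Eif2ak2 between libraries therefore cannot be read from these tables.

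The 4 genes under the older symbols Eif2c1 to Eif2c4 encode Argonaute proteins, which carry small silencing RNAs and are no initiation factors. Eif2c1 was the highest, at 12.8, 6.63, 13.1 and 27.2 FPKM, with a log2 ratio of 0.997 in CLP, the value nearest below the threshold there. Eif2c2 had 0.97 to 3.05 FPKM. Eif2c3 had 0.13 FPKM in WT HSC and 0.82 in GRK6-/- CLP and no row in the other libraries. Eif2c4 had 3.06, 4.31, 0.03 and 5.48 FPKM, where the value in WT CLP was about 1 fragment.

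Counted over all members, the factors passed 2-fold less often than genes in general. In HSC 8 of 61 were higher in GRK6-/- (13.1%, against 19.3% of the 11624 genes with a value) and 8 were lower (13.1% against 18.0%), of which Eif2ak1 and Eif2ak2 had no row in GRK6-/-. In CLP 8 of 59 were higher (13.6% against 26.6% of 11191 genes) and 6 were lower (10.2% against 23.4%). In either direction these were 26.2% of the members against 37.4% of all genes in HSC, and 23.7% against 50.0% in CLP. The median log2 ratio of the members was -0.03 in HSC and -0.04 in CLP, while that of all genes was 0.05 in both. Among members that reached 1 FPKM in each HSC library the median was 0.14, so its sign is not fixed.

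Part of the lower share goes with level. At a mean of at least 100 FPKM over both libraries compared, 4 of 24 members passed 2-fold in HSC (16.7%, against 19.8% of all genes of that level) and 2 of 23 in CLP (8.70% against 25.7%). Between 10 and 100 FPKM it was 9 of 27 in HSC (33.3% against 35.6%) and 10 of 31 in CLP (32.3% against 48.1%). Under 10 FPKM it was 3 of 10 in HSC (30.0% against 41.0%) and 2 of 5 in CLP (40.0% against 55.3%). In the upper classes the share was thus near that of genes of the same level in HSC and lower in CLP. The class under 10 FPKM held only 10 members in HSC and 5 in CLP, too few to read a share from.

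**Figure D4:**
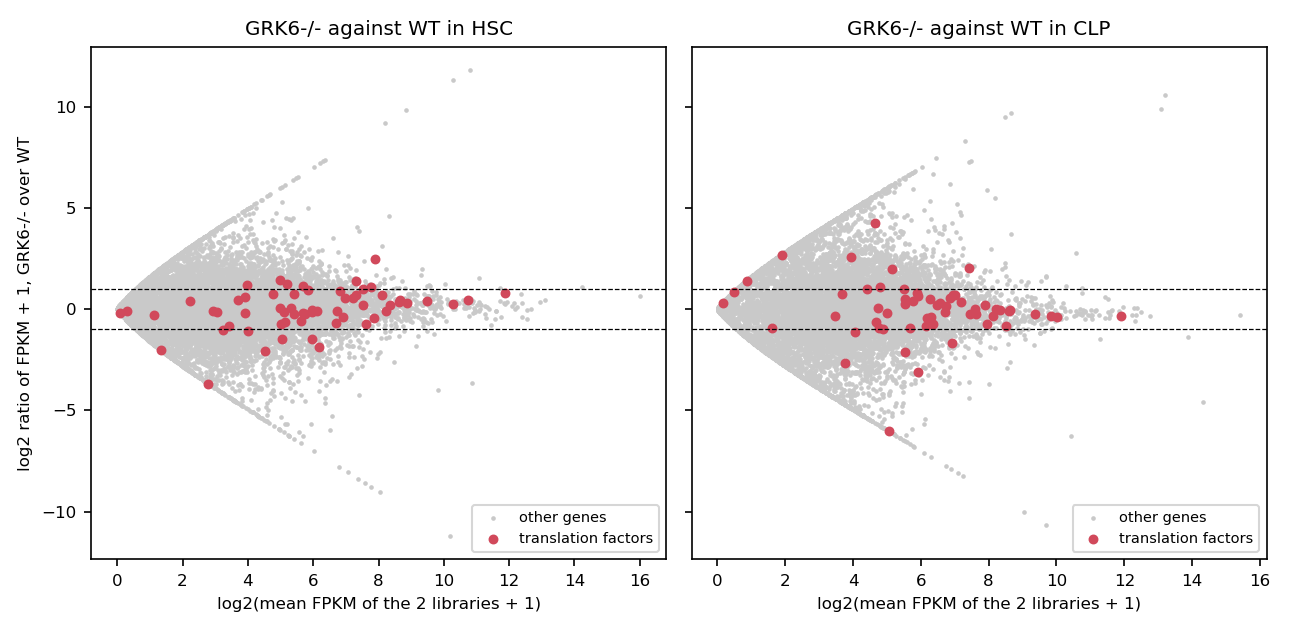
Log2 ratio of FPKM + 1 in GRK6-/- over WT against log2 of the mean FPKM + 1, in HSC (left) and CLP (right), with 1 point per gene and dashed lines at 2-fold. Grey points are the other genes and red points the translation factors, 16 of 61 of which lie outside the lines in HSC and 14 of 59 in CLP; the straight outer edges are genes with no row in 1 of the libraries.

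Between the populations, 35 members were within 2-fold in both, Eif3b was higher and Eif2ak4 lower in both, and 3 crossed over. Of the 59 members with a ratio in both, 59.3% were thus within 2-fold in both, against 34.7% of the 10398 such genes, 3.39% passed it in the same direction against 10.1%, and 5.08% in opposite directions against 10.8%. Eif2a and Eif2b1 were higher in GRK6-/- HSC and lower in GRK6-/- CLP, and Eif2ak2 was the reverse, with the change of row naming given above. In HSC alone, Eif2s2, Eif3j, Eif3l, Eif3m and Eif4ebp1 were higher and Eef2k, Eif2b3, Eif2b5, Eif4enif1 and Eif4g1 lower. In CLP alone, Eif1ad, Eif2ak3, Eif2c4, Eif2d, Eif4ebp2 and Eif4g3 were higher and Eef1e1, Eif2b2 and Eif2b4 lower. None of these differences between the populations was tested. With a pseudocount of 10, Eif2a (0.98), Eif2s2 (0.97), Eif3j (0.72), Eif3m (0.95), Eef2k (-0.67), Eif2b3 (-0.51) and Eif2ak1 no longer passed 2-fold in HSC, nor did Eif1ad (0.79), Eif2d (0.83), Eif2c4 (0.63), Eif2ak2 and Eif2b1 in CLP, and Eif2ak4 was at -1.36 in HSC.

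**Figure D5:**
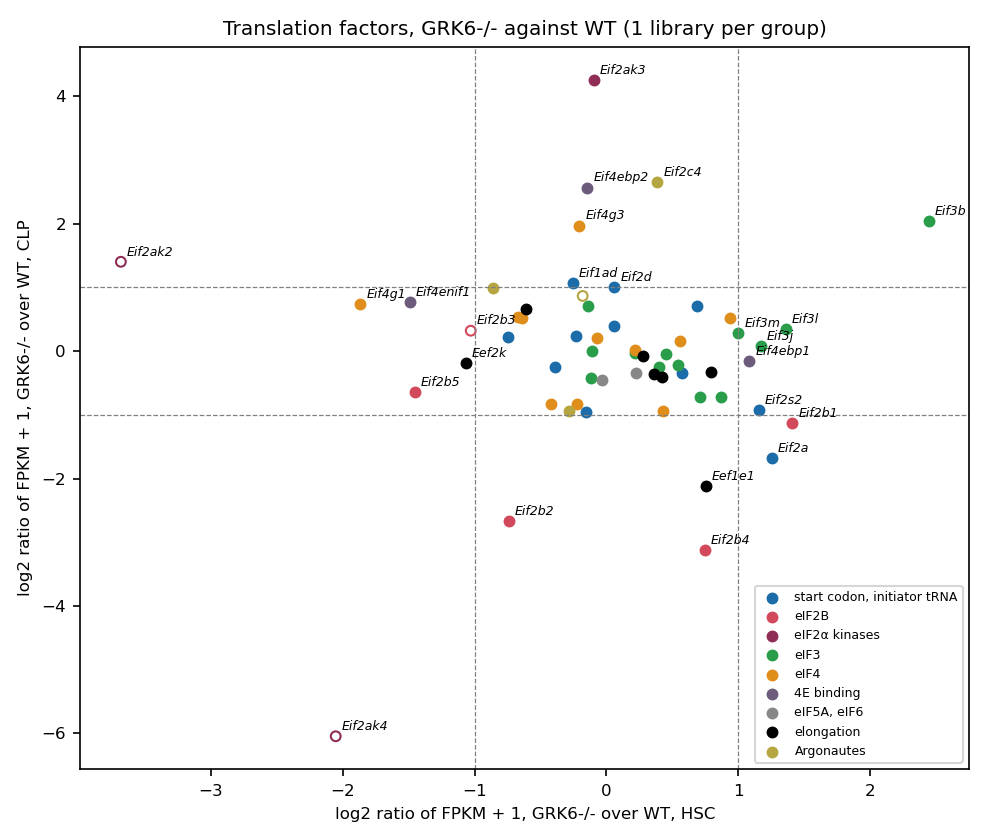
Log2 ratio of FPKM + 1 in GRK6-/- over WT in HSC (horizontal) and CLP (vertical) for the members with a ratio in both, coloured by role. Names mark genes past 2-fold (dashed lines) in either population and open circles genes with no row in at least 1 library; Eif3b is alone in the upper right corner (2.45 and 2.04) and Eif2ak4 alone in the lower left.

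The populations were also compared within each genotype, using the same 4 libraries. In WT, 6 of 61 members were more than 2-fold higher in CLP than in HSC (9.84%, against 21.8% of 11202 genes) and 8 were lower (13.1% against 24.7%), 3 of them with no row in CLP. In GRK6-/-, 8 of 60 were higher in CLP (13.3% against 22.3% of 11708 genes) and 9 were lower (15.0% against 23.4%). In either direction this came to 23.0% of the members against 46.5% of all genes in WT, and to 28.3% against 45.6% in GRK6-/-. Of the eIF2B subunits, 4 of 5 were lower in CLP in GRK6-/- (80% against 23.4% of all genes), among them Eif2b3 at about 3 fragments in CLP. In WT 1 of 5 was lower (20% against 24.7%), which was Eif2b3 with no row in CLP. Eif2b4 was higher in CLP in WT, 1 of 5 (20% against 21.8%). Members of at least 100 FPKM passed 2-fold in 1 of 22 cases in WT, which was Eif2a (4.55% against 23.8%), and in 5 of 24 in GRK6-/- (20.8% against 26.4%). Between 10 and 100 FPKM the numbers were 8 of 30 in WT (26.7% against 44.9%) and 9 of 29 in GRK6-/- (31.0% against 44.6%). Under 10 FPKM they were 5 of 9 in WT (55.6% against 51.1%) and 3 of 7 in GRK6-/- (42.9% against 49.0%).

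Other genes of the pathway were counted in lists of their own. Ribosomal proteins passed 2-fold in 3 of 74 cases upwards and 4 downwards in GRK6-/- HSC (9.46%, against 37.4% of all genes), and in 5 each way of 74 in GRK6-/- CLP (13.5% against 50.0%). A list of 21 genes held aminoacyl-tRNA synthetases together with Aimp1 and Aimp2, which belong to their complex and are no synthetases. Of these 21, 4 were higher, Aimp1 among them, and 2 lower in HSC (28.6%). In CLP 5 were higher and 5 lower (47.6%), near the share of all genes. Of 38 genes with a value in a further list, mostly of translation, 4 were higher and 6 lower in HSC (26.3%), and of 36 in CLP 8 were higher and 5 lower (36.1%). The list also held factors of mitochondrial translation, such as Gfm1 and Mtif3, and Nacc1, which is no translation factor and was within 2-fold in both populations. Mknk2, a kinase of eIF4E, had 311 FPKM in WT HSC and 44.1 in GRK6-/- HSC, a log2 ratio of -2.79. Denr, which recycles ribosomal subunits together with Mcts1, had a log2 ratio of -2.04 in HSC, while Mcts1 had 1.08. Pdcd4, an inhibitor of the helicase eIF4A, had 109 FPKM in WT CLP and no row in GRK6-/- CLP.

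Genes that the phosphorylation of eIF2 alpha is known to induce gave 4 higher of 14 in HSC (28.6%, against 19.3% of all genes), 2 of them with no row in WT. In HSC 1 was lower (7.14% against 18.0%). Of 12 in CLP, 0 were higher (0% against 26.6%) and 3 were lower (25% against 23.4%). In either direction this was 35.7% against 37.4% in HSC and 25% against 50.0% in CLP. The share in HSC was thus near that of genes in general in either direction, but above it for higher genes and below it for lower ones, which was not tested. Asns, asparagine synthetase, had 2.07 FPKM in WT HSC and 67.1 in GRK6-/- HSC, a log2 ratio of 4.47, with 0.12 in WT CLP and no row in GRK6-/- CLP. Ddit3, which encodes the transcription factor CHOP, had a row only in GRK6-/- HSC, at 64.2 FPKM. Phgdh, of serine synthesis, had log2 ratios of 1.47 in HSC and -1.59 in CLP. Atf4, the transcription factor whose own mRNA is under translational control, had 193, 156, 158 and 176 FPKM and was within 2-fold in both.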

How the data were processed

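RNA of 4 pooled libraries was analysed, 1 per genotype and population, grouped by the deposited labels. Per the submitters' processing notes and the study's methods, reads were mapped on mm9 with TopHat 1.4.0 within the Tuxedo tools. The authors deposited 1 FPKM value per gene and library, already scaled by transcript length and mapped fragments. Counts were not used here, and the quantifier's settings are not given in the sources used here.

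Rows of 1 symbol were summed and missing rows set to 0. Genes named in a joint row were left out, which took away 325 of 12742 genes and kept 12417. Log2 ratios of FPKM + 1 were computed in Python 3.11.15 with numpy 2.4.6 and pandas 2.3.3, and figures drawn with matplotlib 3.10.9. With 1 library per group no test was made, and an absolute log2 ratio of 1 served as threshold. The study's P threshold could not be applied to FPKM alone. Depth was estimated from steps in values under 0.3 FPKM of single-transcript genes, and numbers of fragments follow from it and the longest coding transcript. Scripts were tested on simulated data. Sequences came from RefSeq (GRCm38.p6), where 49 members matched.

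Log2 ratios between genotypes were printed for the 10 highest members, those past 2-fold one way in both populations, the 8 largest rises and falls in each (at least 10 FPKM in 1 library), and all eIF2B, eIF2 alpha kinase, 4E binding and eIF4F genes. Of the other lists, the 3 largest rises and falls in each population could be named. The members and lists were chosen with earlier results of these data known. Alternatives were the pseudocount, filters on low values, rescaling, the highest row per symbol, joint rows shared out, a stricter threshold and 3 sets of members left out that were chosen after seeing the data.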

Additional observations from a re-analysis of the deposited data

Results flagged for a closer look

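For 3 factors the GRK6-/- library lay on opposite sides of WT in HSC and CLP, each by more than 2-fold, and the difference was not tested because each group had 1 library. Eif2a, a factor that can carry a tRNA to the ribosome apart from eIF2, had a log2 ratio of 1.25 in HSC and -1.68 in CLP. Eif2b1, a regulatory subunit of eIF2B, had 1.41 in HSC and -1.13 in CLP. With a pseudocount of 10, Eif2a in HSC (0.98) and Eif2b1 in CLP (-0.72) kept their sides but lay within 2-fold. Eif2ak2, the kinase PKR, had -3.68 in HSC and 1.402 in CLP, and both values rest on libraries in which its locus lay under the row of Gm6548.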

How the results depend on the processing

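No paired analysis was possible because each group had 1 library and the labels give no replicate numbers. With a pseudocount of 10 the members past 2-fold in HSC became 4 higher and 5 lower, those higher in CLP became 4, and those lower in CLP than in HSC in WT became 4. With an absolute log2 ratio of at least 2, HSC had 1 higher and 3 lower, CLP had 4 higher, CLP against HSC had 1 higher and 4 lower in WT and 1 higher and 5 lower in GRK6-/-. Among members that reached 1 FPKM in each library compared, the median was 0.14 in HSC and 0.088 for CLP against HSC in WT, where 4 members were lower. Without members under 10 FPKM in both libraries, chosen after seeing the data, the HSC median was 0.14 and 5 members were lower in CLP than in HSC in WT. Without Eif2ak1 and Eif2ak2, also chosen later, 8 were higher and 6 lower in HSC. The causes were not tested. Shares of all genes under these alternatives are not given here, so the counts do not show whether members still passed less often than genes in general. Requiring 1 FPKM in only 1 library, rescaling, which moved the median of all genes by at most 0.03, a pseudocount of 0.1, the highest row per symbol, joint rows shared out and leaving out the Argonautes kept each count within 1.5 times. No ratio past 2-fold changed sign. A pseudocount of 10 draws all ratios toward 0, and 34 of the single ratios were counted as moved and 140 as the same. Several low members rest on fewer than 50 estimated fragments, and with 1 pooled library per group the spread at any level is unknown.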
